A study of Mus musculus with 6 samples.

Results

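The genes described are 10 protease inhibitors of blood neutrophils, the stefins *Stfa1*, *Stfa2*, *Stfa2l1*, *Stfa3* and *Cstb*, the cystatin *Cst3*, the serpin *Serpinb1a*, and the WAP domain genes *Slpi*, *Wfdc17* and *Wfdc21*. They were picked by gene name from a table of 29097 genes, with earlier results of these data known, and all 10 names were found. Male C57BL/6 mice, 8 weeks old, carried silk ligatures around their molars for 14 d (LIP, ligature-induced periodontitis) or were left untreated for 14 d (Ctrl). Cells positive for CD45, CD11b and Ly6G were sorted from peripheral blood by fluorescence-activated cell sorting, and 3 Smart-seq2 libraries were made per group, each from a pool of 5 mice. Smart-seq2 copies full-length transcripts and adds no molecular identifiers, so PCR copies were counted as reads. A library stands for a pool and not for a mouse, and the spread between mice was not measured. Counts summed to between 52186555 and 57262379 per library.

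Stefins and cystatins are small proteins that block cysteine proteases, above all the lysosomal cathepsins, by plugging the active site cleft. Serpins trap serine proteases in an irreversible complex, and proteins with a WAP domain, a fold held together by disulfide bonds, include fast inhibitors of elastase. Neutrophils store serine proteases in their granules and carry inhibitors in the cytosol and in the granules, which limit damage to the cell itself and to the tissue around it.

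The sorted libraries carried neutrophil genes, and their makeup differed between the groups. Levels are given as TMM-scaled FPKM, the deposited FPKM (fragments per kilobase of gene, divided by library depth) over a library factor that centres most genes (TMM, trimmed mean of M values). A gene was called higher or lower when its p from the edgeR quasi-likelihood test, adjusted by the Benjamini-Hochberg method over 10440 genes, was below 0.05. By this rule 26.5% of these genes were higher in LIP and 27.2% lower. All 19 mature neutrophil genes were called higher in LIP, with summed levels of 14579.7, 18016 and 16730.5 in Ctrl libraries beside 63763, 68325 and 61626 in LIP libraries, with *S100a9* the most abundant. All 7 erythroid genes tested (of 9) were lower, with *Hba-a1* on top (sums 159171, 168854 and 167415 in Ctrl, 22699, 21867 and 21574 in LIP). B cell genes were lower in 8 of 8, with *Ighm* on top (sums 3176, 3517 and 3260.2 in Ctrl, 590.3, 659 and 642 in LIP), and T cell genes in 8 of 8, with *Trbc2* on top (sums 332, 366 and 323 in Ctrl, 56.3, 66.5 and 53.4 in LIP). Under TMM 8 of 8 monocyte and macrophage genes were higher in LIP, with *Ly6c2* on top (sums 153, 148 and 159.6 in Ctrl, 327, 349 and 311 in LIP), and so were 8 of 8 platelet genes, with *Ppbp* on top (sums 688, 939 and 859 in Ctrl, 1881, 1873 and 2152 in LIP), and 5 of 6 secondary granule genes, with *Ngp* on top (sums 1708, 2069 and 1748 in Ctrl, 3319, 3510.2 and 3301 in LIP), although *Ly6c2*, *Ppbp* and *Ngp* turned below 0 once libraries had been scaled on the 19 neutrophil genes. Fewer calls, all higher under TMM, fell on NK cell genes (2 of 5, *Gzma* on top, list sums 174, 228 and 191 in Ctrl, 238, 256 and 227 in LIP), on eosinophil and basophil genes (1 of 5 tested, *Siglecf* on top, list sums 12.3, 7.79 and 8.57 in Ctrl, 17.7, 15.8 and 21.9 in LIP) and on dendritic cell genes (1 tested of 6, *Cd209a*, list sums 4.51, 7.72 and 3.99 in Ctrl, 11.2, 16 and 12.7 in LIP), and *Gzma*, *Siglecf* and *Cd209a* turned below 0 under the same scaling. *Gzma* was itself not called, but was called higher without Ctrl library 2, at a log2 fold change of 0.34 (adjusted p = 0.0263, edgeR). Primary granule genes lay near the filter, with 2 of 6 tested and neither called under TMM, though both were lower once scaled on the neutrophil genes (*Elane* on top, list sums 7.15, 4.74 and 3.09 in Ctrl, 2.36, 3.26 and 2.35 in LIP), and no marker of any of these lists was at 0 in all 6 libraries. In RNA from pooled cells, fewer cells of a type and less RNA per cell cannot be told apart, and the part of cell makeup in the results on the inhibitors was not tested.

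Of the 10 inhibitors, 9 had a mean FPKM of 1 or more across libraries and were tested, and each of these 9 also reached 1 in either group alone. In the edgeR fit 8 of the 9 were higher in LIP, where 26.5% of all genes tested were, although *Cstb*, *Cst3* and *Slpi* turned below 0 with scaling on mature neutrophil genes. The remaining gene, *Serpinb1a*, was lower, as were 27.2% of all genes tested, and calls in either direction made up 53.6%. TMM-scaled FPKM of the groups did not overlap for any of the 9, as held for 63.4% of all genes tested. Their median log2 fold change (LIP over Ctrl) was 2.05, beside -0.09 across all genes tested. Calls over all genes depended on the scaling, with 2766 higher and 2835 lower under TMM, 1919 and 4146 under library totals, and 68 and 9184 with scaling on mature neutrophil genes. Under the last, 3 of the inhibitors were higher (*Wfdc17*, *Stfa2l1* and *Wfdc21*) and 3 lower (*Serpinb1a*, *Cstb* and *Cst3*).

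By level, *Wfdc17* and *Slpi* stood at the top in Ctrl libraries and overlapped each other. *Cst3* and *Wfdc21* followed, each apart from its neighbours. *Cstb*, *Stfa2l1* and *Serpinb1a* lay close together, with overlap between neighbours, and *Stfa1*, *Stfa2* and *Stfa3* came last. In LIP libraries the order was *Wfdc17*, *Slpi*, *Wfdc21*, *Cst3*, *Stfa2l1*, *Cstb*, *Stfa1*, *Serpinb1a*, *Stfa2* and *Stfa3*, where *Wfdc21* and *Cst3* overlapped, as did *Stfa2* and *Stfa3*. Among all 29097 genes ranked by mean deposited FPKM, *Wfdc17* stood at rank 59 in Ctrl and 26 in LIP, and *Slpi* at 67 and 33. *Serpinb1a* moved the other way, from rank 616 to 1590.

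**Figure D1:**
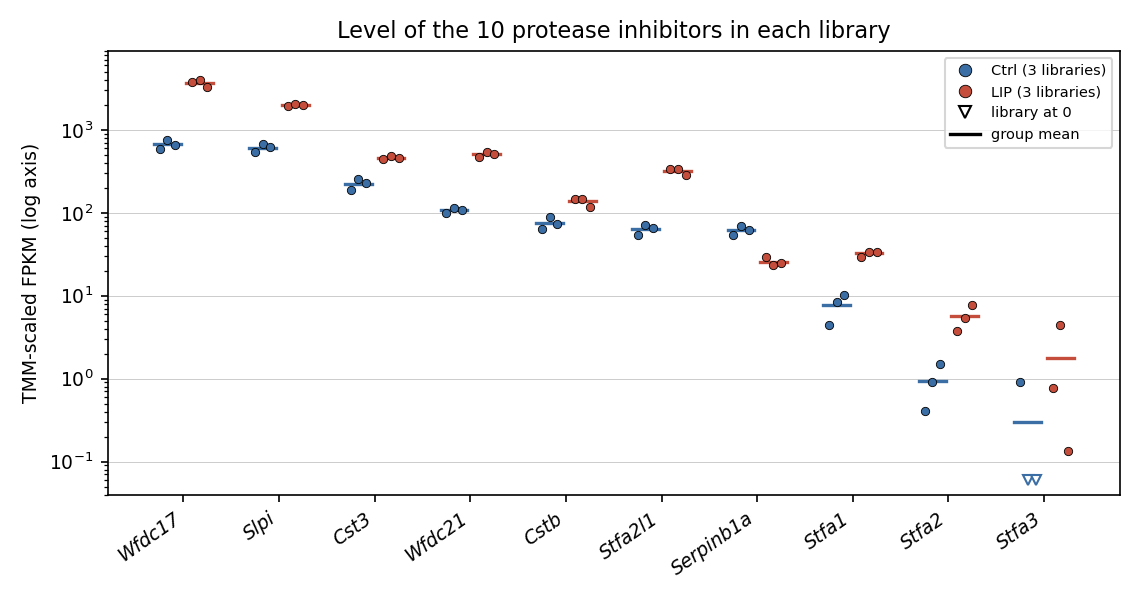
TMM-scaled FPKM of the 10 inhibitors (log axis) in the 3 Ctrl and 3 LIP libraries, with a point per library, a bar at the group mean and open triangles for libraries at 0. The LIP libraries sit above the Ctrl libraries for 8 genes (of which *Cstb*, *Cst3* and *Slpi* turn below 0 in log2 fold change with scaling on mature neutrophil genes) and below them for *Serpinb1a*, and the groups overlap for *Stfa3*.

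Among the stefins of the mouse stefin A group, which act in the cytosol and are known as genes of neutrophils and their precursors, *Stfa2l1* was the most abundant. *Stfa2l1* (ENSMUSG00000059657, chr16:36156811-36161953, GRCm38) had TMM-scaled FPKM of 54.1, 70.6 and 65.3 in the Ctrl libraries and 339, 341 and 286 in the LIP libraries. All LIP libraries were high and close together, and the lowest of them lay far above the highest Ctrl library. The group means were 63.3 ± 8.45 and 322 ± 31.1 (SD, n = 3 libraries each), and the log2 fold change was 2.33 (SE 0.145, adjusted p = 7.02e-07, edgeR quasi-likelihood test with Benjamini-Hochberg adjustment, as for every adjusted p below) under TMM and 0.55 (adjusted p = 0.0051) with scaling on mature neutrophil genes. In rank by fold change it was 66 of the 10440 genes tested.

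*Stfa1* (ENSMUSG00000071562, chr16:36276951-36285373) lay lower, with 4.48, 8.34 and 10.3 in Ctrl and 29.3, 34 and 33.7 in LIP. The Ctrl libraries differed among themselves, with library 1 the lowest, while the LIP libraries were close to each other and all above Ctrl, and its log2 fold change was 2.05 (SE 0.311, adjusted p = 0.000298, edgeR). *Stfa2* (ENSMUSG00000022902, chr16:36403992-36408457) had the largest fold change of the 9 inhibitors tested under TMM with all libraries, and the largest SE. This rank was lost to *Wfdc17* and *Stfa2l1* without Ctrl library 1 (log2 fold change 2.19, against 2.35 and 2.22) or LIP library 3 (2.26, against 2.54 and 2.42). Under limma with a pseudocount of 1 the value for *Stfa2* was 1.56, below *Wfdc17* (2.14), *Stfa2l1* (2.02), *Wfdc21* (1.91) and *Stfa1* (1.70). *Stfa2* rested on few reads, with counts of 13, 28 and 45 in Ctrl and 95, 139 and 188 in LIP. In TMM-scaled FPKM this gave 0.412, 0.903 and 1.5 in Ctrl and 3.71, 5.4 and 7.8 in LIP. Neither group was tight, yet the groups did not overlap, and the log2 fold change was 2.56 (SE 0.566, adjusted p = 0.00338, edgeR). Both genes were no longer called with libraries scaled on mature neutrophil genes, with log2 fold changes of 0.27 (edgeR, adjusted p = 0.435) for *Stfa1* and 0.79 (adjusted p = 0.192) for *Stfa2*.

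*Stfa3* (ENSMUSG00000054905, chr16:36450537-36455392) was the inhibitor outside the test, with a mean FPKM of 0.954, just under the filter. It had 25, 0 and 0 reads in the Ctrl libraries, against 17, 99 and 3 in LIP. LIP library 2 alone held most of the reads, Ctrl libraries 2 and 3 held none, and the groups overlapped. A count of 0 allows up to 3 reads by counting error alone, and without the filter the log2 fold change of 2.53 (SE 2.08) had an adjusted p of 0.423 (edgeR).

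The stefin A-like genes lie together on chromosome 16. The table holds 10 of them between chr16:36119946 and 36455392, a span of 335447 bases, of which the 4 *Stfa* genes belong to the inhibitors above and 6 are relatives. Of the relatives, *Cstdc4* is the most abundant. It had 12.7, 13.1 and 14.9 in Ctrl and 90.2, 83.1 and 71.1 in LIP (TMM-scaled FPKM), with no overlap and a log2 fold change of 2.57 (SE 0.138, adjusted p = 3.16e-07, edgeR). *Cstdc5* had 1.1, 2.05 and 1.97 in Ctrl and 10.1, 13.5 and 18.4 in LIP, and its log2 fold change of 3.01 (SE 0.394) was above those of the *Stfa* genes, a difference that was not tested. *Csta3*, at 5.86, 3.35 and 2.73 in Ctrl and 20.5, 12.4 and 15.6 in LIP, and *Csta2* (log2 fold change 1.85, SE 0.625) were also called higher. For *Csta2* the value was 2.74 without Ctrl library 1, and the call was lost without Ctrl library 2, Ctrl library 3 or LIP library 2, with edgeR adjusted p of 0.0931, 0.0948 and 0.0697. It was also lost under library totals (0.0593), filterByExpr (0.0975) and no filter (0.185, all edgeR adjusted p). *Csta1* and *Cstdc6* were not tested, with at most 15 reads in any library. Of the 10 genes 7 were tested and all 7, *Csta2* with these exceptions, were higher in LIP, where 26.5% of all genes tested were. With scaling on mature neutrophil genes *Stfa2l1*, *Cstdc4* and *Cstdc5* stayed higher, while *Stfa1*, *Stfa2*, *Csta2* and *Csta3* kept a positive log2 fold change without a call.

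Between these genes the table lists 5 more with any read, *Gm25024*, *Gm6815*, *Gm10913*, *Gm24801* and *Gm15845*, none with more than 9 reads in a library.

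Counts of all 10 stefin A-like genes were added to a single count per library. This sum does not depend on how reads were divided between the 10, though it can depend on reads shared with genes outside them. It came to 3520, 4121 and 4177 reads in Ctrl and 18862, 18649 and 15387 in LIP. No LIP library came near the Ctrl range, and the summed counts had a log2 fold change of 2.42 (SE 0.121, adjusted p = 2.19e-07, edgeR) under TMM and 0.64 (adjusted p = 0.0004) with scaling on mature neutrophil genes. Their summed TMM-scaled FPKM, which weighs reads by gene length and so does depend on the division, was 81.4, 99 and 97.1 in Ctrl and 498, 498 and 436 in LIP. Of this FPKM sum *Stfa2l1* made up 68.3% ± 2.64 in Ctrl and 67.4% ± 1.53 in LIP (SD, 3 libraries each), *Cstdc4* 14.7% ± 1.29 and 17% ± 0.946, and *Stfa1* 8.18% ± 2.56 and 6.81% ± 0.924. The FPKM shares of *Stfa2l1* and *Stfa1* overlapped between groups, and that of *Cstdc4* did not, with 15.6, 13.2 and 15.4% in Ctrl and 18.1, 16.7 and 16.3% in LIP.

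**Figure D2:**
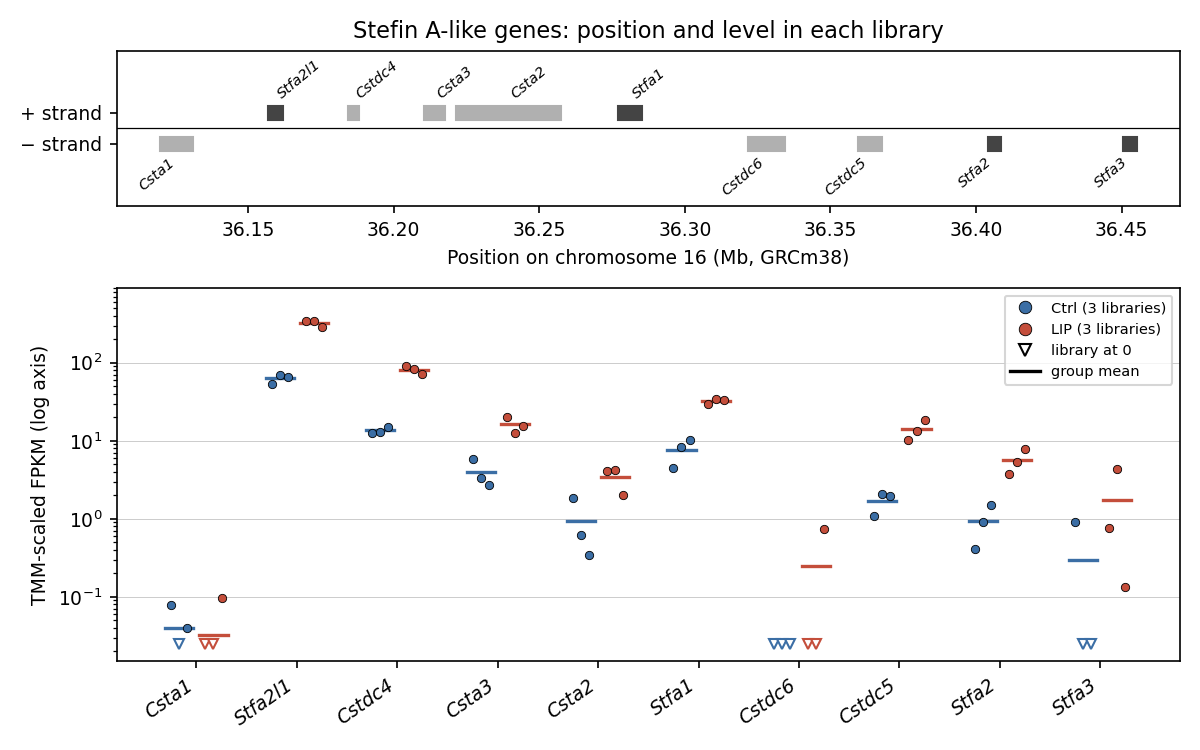
The upper panel maps the 10 stefin A-like genes on chromosome 16 (GRCm38, Mb) by strand, with the 4 *Stfa* genes in dark grey, and the lower panel gives their TMM-scaled FPKM (log axis) in the 3 Ctrl and 3 LIP libraries, with bars at group means and open triangles at 0. LIP libraries lie above Ctrl libraries in the 7 genes tested, and *Csta1* and *Cstdc6* overlap near the floor. *Stfa3* also overlaps, with 0 in Ctrl libraries 2 and 3 and 4.39 in LIP library 2.

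The copies are alike enough that reads may be exchanged between them. In GENCODE vM21 coding sequences, *Stfa2* and *Stfa2l1* were identical at 298 of 309 aligned bases (96.4%), *Stfa1* and *Cstdc5* at 285 of 291 (97.9%), and *Cstdc4* and *Csta2* at 282 of 291 (96.9%). Of the 50-base stretches in transcripts of *Stfa2l1*, 24.6% also occurred in a transcript of another gene, beside 15.9% for *Stfa2*, 22.5% for *Stfa1*, 20.4% for *Csta2*, 14.2% for *Cstdc4* and 36.2% for *Cstdc5*. For *Cstdc4* the other genes numbered 772, with *Csta2* the most frequent, and 7 at 100 bases. At 100 bases the shares were 0 for *Stfa2l1* and *Stfa2*, 5.07% for *Stfa1*, 5.61% for *Csta2*, 2.53% for *Cstdc4* and 15.6% for *Cstdc5*. Values of *Stfa1*, *Stfa2*, *Stfa2l1*, *Cstdc4*, *Cstdc5* and *Csta2* are therefore uncertain where reads fell in shared stretches, and a small fraction of *Stfa2l1* reads moved to *Stfa2* would be large beside the reads of *Stfa2*, as would reads of *Cstdc4* beside those of *Csta2*. By the paper's methods, paired reads were longer than 100 bases before trimming, a length at which *Stfa2l1* and *Stfa2* shared no stretch. *Stfa3*, *Cstb*, *Cst3*, *Slpi*, *Wfdc17* and *Wfdc21* shared no 50-base stretch with another gene, and *Serpinb1a* shared 2.81%, mostly with *Serpinb1c*. Coding exon 2, which is 102 bases long in each of these stefins, shows how close the pairs are. Capitals mark bases that differ from *Stfa2l1* at the same position of the exon, 1 in *Stfa2*, 16 in *Stfa3*, 17 in *Cstdc4*, 18 in *Stfa1* and 19 in *Cstdc5*. The exons (GRCm38, coding strand) lie at chr16:36159946-36160047 (*Stfa2l1*, plus strand), chr16:36280466-36280567 (*Stfa1*, plus strand), chr16:36405130-36405231 (*Stfa2*, minus strand), chr16:36452151-36452252 (*Stfa3*, minus strand), chr16:36186364-36186465 (*Cstdc4*, plus strand), chr16:36364212-36364313 (*Cstdc5*, minus strand).
Stfa2l1: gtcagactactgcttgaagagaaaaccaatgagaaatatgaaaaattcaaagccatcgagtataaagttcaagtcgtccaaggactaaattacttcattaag
Stfa2: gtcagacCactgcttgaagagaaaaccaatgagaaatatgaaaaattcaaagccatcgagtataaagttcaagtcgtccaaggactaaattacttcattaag
Stfa3: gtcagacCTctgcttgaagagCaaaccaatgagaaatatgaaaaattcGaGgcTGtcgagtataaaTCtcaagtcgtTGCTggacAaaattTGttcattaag
Cstdc4: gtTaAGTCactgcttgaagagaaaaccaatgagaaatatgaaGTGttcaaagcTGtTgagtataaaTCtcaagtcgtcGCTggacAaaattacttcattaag
Stfa1: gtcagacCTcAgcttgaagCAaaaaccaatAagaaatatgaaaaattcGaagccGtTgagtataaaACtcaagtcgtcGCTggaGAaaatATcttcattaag
Cstdc5: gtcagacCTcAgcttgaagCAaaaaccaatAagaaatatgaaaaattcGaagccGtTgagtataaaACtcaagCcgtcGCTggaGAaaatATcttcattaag

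Promoters of the stefin genes on chromosome 16 are shown because they resemble each other as the coding sequences do. RefSeq promoter entries (GRCm38.p6) were found for 7 of the 10 inhibitors, and the 250 bases before each start were searched on both strands. The promoters of *Stfa1*, *Stfa2*, *Stfa2l1*, *Stfa3*, *Cstdc4*, *Cstdc5* and *Csta3* share a longest common run, ACCTTTAAAACC, that holds an A/T-rich stretch and starts 32 to 36 bases before the RefSeq start of *Stfa2*, *Cstdc4*, *Stfa1*, *Stfa3* and *Stfa2l1*, 12 before that of *Cstdc5* and 80 before that of *Csta3*. It occurs in 11 of 32851 promoters (0.0335%). The others are *Cstdc3*, *Cdc42ep4*, *Gm39539* and *Gm7260*. Over the 100 bases that end with this run, pairs of the 7 promoters were between 75.5% and 94% identical. The PU.1 core GAGGAAG (10.6% of all promoters) was found before *Stfa1*, *Cstdc4*, *Cstdc5* and *Wfdc17*, and the C/EBP form TTGCNNAA (9.56%) before *Stfa1*, *Cstdc5*, *Csta3* and *Slpi*. The STAT form TTCNNNGAA (7.02%) was in that of *Cstdc4*. An interferon-response form, also searched (2.98% of all promoters), was in none of the promoters of these stefins, *Cst3*, *Slpi* or *Wfdc17*. A match is a description of letters, and nothing was measured at these promoters. The stretches below show the shared run in capitals, with 120 bases up to the start for *Stfa2l1* (chr16:36156691-36156810, plus strand), *Cstdc4* (chr16:36184092-36184211, plus strand) and *Stfa3* (chr16:36455393-36455512, minus strand). For *Stfa1* (chr16:36277111-36277140, plus strand) and *Stfa2* (chr16:36408370-36408399, minus strand), where GENCODE vM21 has a longer transcript start, 30 bases are shown.
Stfa2l1: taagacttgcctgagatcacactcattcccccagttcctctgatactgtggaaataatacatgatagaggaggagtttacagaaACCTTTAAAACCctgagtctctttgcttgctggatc
Cstdc4: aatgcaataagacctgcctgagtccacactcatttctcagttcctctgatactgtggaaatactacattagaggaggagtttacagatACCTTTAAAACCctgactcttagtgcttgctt
Stfa3: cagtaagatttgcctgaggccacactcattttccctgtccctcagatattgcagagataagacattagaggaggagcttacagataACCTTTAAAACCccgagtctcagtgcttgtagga
Stfa1: ggatACCTTTAAAACCctgagtctcagtgc
Stfa2: agaaACCTTTAAAACCctgagtctctatgc

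*Cstb* (ENSMUSG00000005054, chr10:78425669-78427622), the stefin found in nearly every cell type, lies outside this cluster. Its coding sequence was between 52.1% and 57.5% identical to those of the 4 *Stfa* genes. TMM-scaled FPKM was 64.3, 88.4 and 73.5 in Ctrl and 146, 147 and 118 in LIP. All LIP libraries were above all Ctrl libraries, by a smaller margin than for the *Stfa* genes tested. The log2 fold change of 0.85 (SE 0.154, adjusted p = 0.001, edgeR), the smallest among the 8 inhibitors called higher, turned to -0.94 (adjusted p = 0.0002) with libraries scaled on mature neutrophil genes.

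*Cst3* (ENSMUSG00000027447, chr2:148871722-148875576) encodes cystatin C, which is secreted and blocks cathepsins outside the cell. It stood at 186, 258 and 227 in Ctrl and 441, 485 and 457 in LIP. Again no LIP library reached down to Ctrl, and the log2 fold change was 1.03 (SE 0.122, adjusted p = 5.43e-05, edgeR) under TMM and -0.76 (adjusted p = 0.000139) with libraries scaled on mature neutrophil genes. *Cst3* is also known as a gene of monocytes and dendritic cells. As given above, 8 of 8 monocyte and macrophage genes were higher in LIP under TMM. Of 6 dendritic cell genes only 1, *Cd209a*, was tested, and it was higher under TMM. The part of these cells in the rise of *Cst3* was not tested. *Cst7*, which encodes cystatin F, an inhibitor kept inside lysosomes of immune cells, was not called at a log2 fold change of -0.59 (SE 0.299, edgeR adjusted p = 0.117). Leaving out a library gave values from -0.84 to -0.38, and without LIP library 1 *Cst7* was called lower, at -0.84 (adjusted p = 0.0394, edgeR). It was also called lower under library totals (edgeR adjusted p = 0.0231), a mean FPKM of 5 or more (0.0362), scaling on mature neutrophil genes (3.02e-05) and limma with either pseudocount (0.00814 and 0.011).

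The WAP domain genes *Wfdc17* and *Slpi* held the highest levels of the 10 inhibitors in both groups. *Wfdc17* (ENSMUSG00000069792, chr11:83703991-83706268), a small secreted protein of activated macrophages and neutrophils, had TMM-scaled FPKM of 590.5, 752 and 663 in Ctrl and 3781, 3998 and 3282 in LIP. The lowest LIP library lay far above the highest Ctrl library, and the means were 669 ± 81 and 3687 ± 367 (SD, n = 3 libraries each). The log2 fold change of *Wfdc17* was 2.45 (SE 0.112, adjusted p = 1.44e-07, edgeR), at rank 51 of 10440 under TMM, and 0.66 (adjusted p = 0.000143) with scaling on mature neutrophil genes. On average 0.189% of all counts in LIP libraries and 0.0431% in Ctrl libraries came from this gene.

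*Wfdc21* (ENSMUSG00000051748, chr11:83746940-83752642) lies on the same strand of chromosome 11, and between the pair the table lists 1 gene, *Wfdc18*. *Wfdc21* had 99.5, 115 and 109 in Ctrl and 467, 544 and 517 in LIP, with tight groups that stood well apart and a log2 fold change of 2.22 (SE 0.119, adjusted p = 3.13e-07, edgeR) under TMM and 0.44 (adjusted p = 0.00576) with scaling on mature neutrophil genes. *Wfdc18*, the only gene tested among 8 other WAP domain genes of the table, was far less abundant, at 1.88, 1.36 and 0.98 in Ctrl and 5.59, 3.85 and 4.06 in LIP. Its log2 fold change was 1.66 (SE 0.397, adjusted p = 0.00517, edgeR) under TMM and -0.12 with scaling on mature neutrophil genes.

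*Slpi* (ENSMUSG00000017002, chr2:164354070-164356507) encodes an inhibitor of neutrophil elastase and cathepsin G made by neutrophils and by epithelia. Its TMM-scaled FPKM was 537, 674 and 614 in Ctrl and 1931, 2052 and 1988 in LIP. LIP libraries lay within a narrow band, all above Ctrl. The log2 fold change of 1.70 (SE 0.0939, adjusted p = 3.49e-07, edgeR) had the smallest SE of the 9 inhibitors tested, and turned to -0.09 (adjusted p = 0.382) with scaling on mature neutrophil genes. The miRNA gene *Mir7678* lies inside *Slpi* on the same strand (chr2:164354313-164354383), and its 137, 177 and 148 reads in Ctrl and 473, 520 and 422 in LIP cannot be told apart from *Slpi* reads. *Slpi* itself had 41269, 51693 and 45889 reads in Ctrl and 122912, 131626 and 119887 in LIP.

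*Serpinb1a* (ENSMUSG00000044734, chr13:32842092-32851185) was the inhibitor that fell. It encodes a cytosolic serpin that blocks elastase and cathepsin G of neutrophil granules. Its TMM-scaled FPKM was 53.9, 68.5 and 62.6 in Ctrl and 28.9, 23.4 and 25 in LIP. Every LIP library was below every Ctrl library. The means were 61.6 ± 7.34 and 25.8 ± 2.86 (SD, n = 3 libraries each), and the log2 fold change was -1.27 (SE 0.137, adjusted p = 2.74e-05, edgeR). Under library totals it was -1.59, and under scaling on mature neutrophil genes -3.05. Neutrophil serine proteases were scarce in these libraries. *Elane* had 2.52, 1.48 and 1.14 in Ctrl and 1.24, 0.807 and 0 in LIP, and *Prtn3* had 1.7, 0.988 and 0.748 and 0.508, 1.49 and 1.41. Both overlapped between groups and neither was called under TMM (adjusted p of 0.262 and 0.974, edgeR). Both were lower with scaling on mature neutrophil genes (edgeR adjusted p of 0.0119 and 0.00723), as was *Elane* under limma with a pseudocount of 1 (0.0278), and without Ctrl library 1 both fell under the filter. *Ctsg* and *Prss57* were under the filter.

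Other serpins moved in both directions. The table holds 23, and among 10 tested 4 were higher and 3 lower, beside 26.5% and 27.2% of all genes tested. The median log2 fold change of the 10 serpins was 0.23. With scaling on mature neutrophil genes 0 of them were higher and 9 lower, beside 68 and 9184 of all 10440 genes tested. Leaving out a library gave 1 to 4 of these serpins higher and 2 to 3 lower. *Serpinb2*, an inhibitor of plasminogen activators, rose by 2.69 (SE 0.388, log2) but was not called with scaling on mature neutrophil genes (0.91, edgeR adjusted p = 0.0507). It passed the filter only through LIP, with deposited FPKM of 0.397, 0.326 and 0.369 in Ctrl. Without LIP library 1 or LIP library 3 it fell under the filter and was not tested. *Serpini1* (-2.24, SE 0.276) and *Serpina3g* (-1.01, SE 0.18), the most abundant of the list, fell. *Serpini1* passed the filter only through Ctrl, with deposited FPKM of 0.682, 0.457 and 0.412 in LIP. *Serpina3f* was lower with -1.79 (SE 0.513), but not called without Ctrl library 2 (-1.14, adjusted p = 0.0811, edgeR) or without the filter (adjusted p = 0.0737). *Serpina3f* too passed the filter only through Ctrl, with deposited FPKM of 0.695, 0.581 and 0.857 in LIP. *Serpinb10* (0.99, SE 0.258), *Serpinb6a* (0.60, SE 0.187) and *Serpine2* (0.60, SE 0.202) were higher under TMM and turned below 0 with scaling on mature neutrophil genes. Neither *Serpinb6a* nor *Serpine2* was called without Ctrl library 1, Ctrl library 3 or LIP library 3, with edgeR adjusted p of 0.0669, 0.0694 and 0.0513 for *Serpinb6a* and 0.063, 0.11 and 0.0555 for *Serpine2*, nor was *Serpinb6a* without LIP library 1 (0.0573) or *Serpine2* without LIP library 2 (0.0649). Both calls were also lost under library totals (edgeR adjusted p of 0.214 and 0.247) and under limma with a pseudocount of 1 (0.242 and 0.337) or 0.1 (0.233 and 0.342), which left 2 of these serpins higher. *Serpinb6b*, *Serpinb9* and *Serpinb9b* were not called under TMM, and were lower with scaling on mature neutrophil genes (edgeR adjusted p of 0.000176, 1.59e-05 and 0.0109).

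Of 6 genes tested in the list of other inhibitors, 1 was higher and 2 were lower, beside 26.5% and 27.2% of all genes tested. With scaling on mature neutrophil genes the counts were 0 and 6, beside 68 and 9184 of all 10440 genes tested. *Cast*, which encodes the calpain inhibitor calpastatin, rose by 0.57 (SE 0.154, log2) under TMM and turned to -1.21 with scaling on mature neutrophil genes. *Cast* was not called under library totals (edgeR adjusted p = 0.206) or limma with either pseudocount (0.215 and 0.216), and *Pebp1* fell (-1.37, SE 0.287). *Spint2*, an inhibitor of cell surface serine proteases, was lower (-0.61, SE 0.2), but not called without Ctrl library 2, Ctrl library 3, LIP library 2 or LIP library 3 (adjusted p of 0.0785, 0.0548, 0.0749 and 0.0795, edgeR) or without the filter (0.0621). *Bsg*, which is in the list but is known as an inducer of matrix metalloproteinases and not as an inhibitor, *Reck* and *Itih5* were not called under TMM, and were lower with scaling on mature neutrophil genes (edgeR adjusted p of 2.61e-07, 0.000523 and 0.000265).

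Stefins and cystatins were then set beside the cysteine cathepsins that they are known to bind. Of 9 genes tested among 11 cathepsin and legumain genes, 2 were higher and 2 lower under TMM, beside 26.5% and 27.2% of all genes tested. *Ctsb* (0.95, SE 0.109, log2) and *Ctsl* (1.15, SE 0.215) were higher, and both turned below 0 with scaling on mature neutrophil genes. *Ctso* (-1.24, SE 0.186) and *Ctsw* (-0.60, SE 0.142) were lower. *Ctss*, the most abundant, overlapped between groups, with 293, 354 and 296 in Ctrl and 325, 394 and 347 in LIP (TMM-scaled FPKM), and was called higher without Ctrl library 2 (0.26, adjusted p = 0.0345, edgeR) and lower with scaling on mature neutrophil genes (adjusted p = 2.82e-07). *Ctsc*, *Ctsz*, *Ctsh* and *Lgmn* were not called under TMM with all libraries and a mean FPKM of 1 or more. *Ctsh* was called lower without LIP library 2 (-0.41, edgeR adjusted p = 0.0402) and *Lgmn* without LIP library 1 (-0.39, adjusted p = 0.0492). Both were also called lower under library totals (edgeR adjusted p of 0.00871 and 0.00461), limma with a pseudocount of 1 (0.00968 and 0.00382) or 0.1 (0.0124 and 0.00496), and a mean FPKM of 5 or more (0.028 and 0.0177). With scaling on mature neutrophil genes 0 of the 9 were higher and 9 lower, beside 68 and 9184 of all 10440 genes tested. Under that scaling the edgeR adjusted p was 5.85e-07 for *Ctsc*, 4.72e-07 for *Ctsz*, 4.14e-07 for *Ctsh* and 4.89e-07 for *Lgmn*.

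The ratio of stefins to cathepsins within a library does not depend on the scaling of libraries. The FPKM of *Stfa1*, *Stfa2*, *Stfa2l1*, *Stfa3* and *Cstb* summed to 0.209, 0.232 and 0.249 times that of the cathepsins in the Ctrl libraries and to 0.746, 0.663 and 0.617 times in the LIP libraries. Every LIP library was above every Ctrl library, and the mean log2 ratio was higher by 1.55 (two-sided exact permutation p = 0.1, the smallest that 3 libraries against 3 can give). *Cst3* and the relatives of the *Stfa* genes were not in the sum. Under TMM the median log2 fold change was 1.84 for the 19 mature neutrophil genes and 0.04 for the 9 cathepsin and legumain genes tested. The part of cell makeup in this ratio was not tested. With reads in place of FPKM the difference in mean log2 ratio was 1.29, and with the mean log2(FPKM + 1) of each list it was 1.54. *Stfa2l1* and *Cstb* are the largest parts of the stefin sum in either group.

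Because the neutrophil genes themselves rose, each inhibitor was also read relative to them, as its FPKM over the geometric mean FPKM of the 19 mature neutrophil genes in the same library. *Wfdc17* had ratios of 3, 3.81 and 3.24 in Ctrl and 5.51, 5.5 and 4.87 in LIP, *Stfa2l1* 0.275, 0.358 and 0.319 and 0.495, 0.469 and 0.425, and *Wfdc21* 0.505, 0.585 and 0.533 and 0.681, 0.749 and 0.767. These 3 were higher in every LIP library than in any Ctrl library, by mean log2 differences of 0.67, 0.55 and 0.44. For *Slpi* the groups overlapped, with ratios of 2.73, 3.42 and 3 in Ctrl and 2.82, 2.82 and 2.95 in LIP (difference -0.08 on the log2 scale, exact permutation p = 0.6). *Stfa1* and *Stfa2* overlapped too, with differences of 0.35 and 0.91 (exact permutation p of 0.5 and 0.2, two-sided). These differences became 0.01 and 0.42 without Ctrl library 1, and 0.58 and 1.32 without Ctrl library 3. For *Slpi* the difference was 0.00 without Ctrl library 2 and 0.03 over *Ly6g* and *Itgam* alone. *Cst3* went from 0.944, 1.31 and 1.11 to 0.643, 0.667 and 0.679 and *Cstb* from 0.327, 0.448 and 0.359 to 0.213, 0.202 and 0.175, so both were lower in every LIP library. *Serpinb1a* had the widest gap, with 0.274, 0.347 and 0.306 in Ctrl and 0.0422, 0.0322 and 0.0371 in LIP, a mean log2 difference of -3.06. A fall was common on this reference. With libraries scaled on the mature neutrophil genes, edgeR called 9184 of all 10440 genes tested lower and 68 higher. The median gene stood at -1.88 (log2) in that fit. *Cst3* (-0.76) and *Cstb* (-0.94) fell less than the median gene there, and *Serpinb1a* (-3.05) fell more. For these 6 genes without overlap the two-sided exact permutation p was 0.1, the smallest that 3 libraries against 3 can give, and *Stfa3* has no ratio in libraries at 0.

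Scaling moved the level of all genes together. Over the genes tested the median was -0.09 with TMM, -0.42 with library totals and -1.88 with scaling on mature neutrophil genes. A scaling shifts all genes by nearly the same amount, so distances from that median are fixed by construction and are given once. On the TMM scale the inhibitors stood 2.65 above the median for *Stfa2*, 2.54 for *Wfdc17*, 2.43 for *Stfa2l1*, 2.32 for *Wfdc21*, 2.15 for *Stfa1* and 1.79 for *Slpi*. *Cst3* and *Cstb* stood 1.13 and 0.94 above it, and *Serpinb1a* was at -1.18, below the median.

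**Figure D3:**
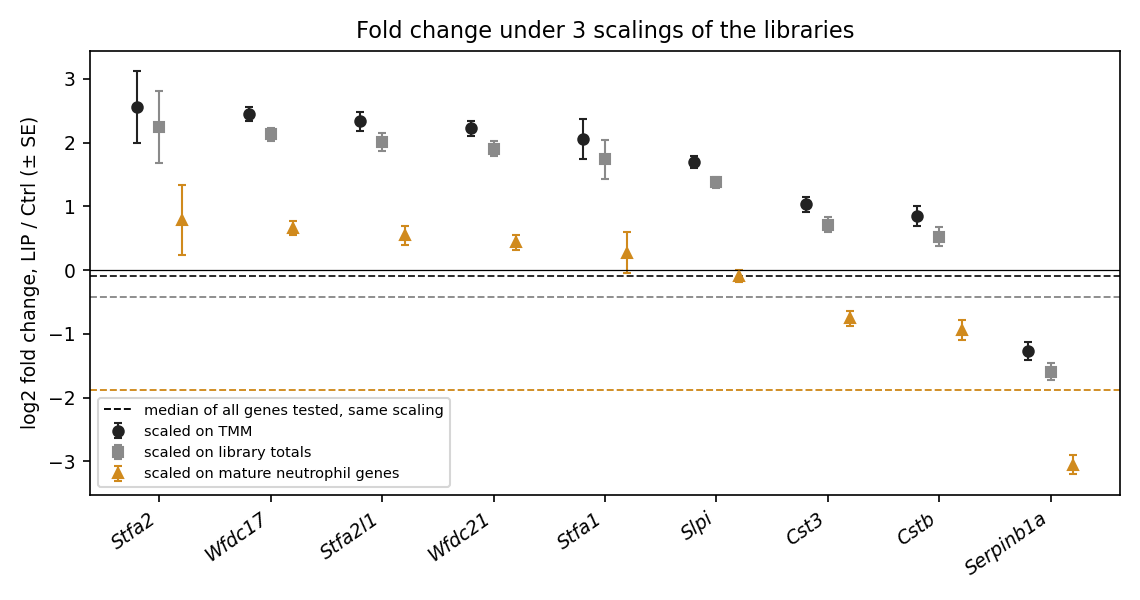
Log2 fold change (LIP over Ctrl, bars give the SE) of the 9 inhibitors tested, with libraries scaled by TMM, by library totals or on mature neutrophil genes, and dashed lines at the median of all genes tested under each. *Serpinb1a* lies below 0 under all 3, and *Cstb*, *Cst3* and *Slpi* turn from above to below 0 under the last, where the median of all genes is -1.88.

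Together the 10 inhibitors took a larger part of the reads in LIP, as did the mature neutrophil genes, at 1.86% ± 0.08 of all counts in Ctrl and 5.49% ± 0.202 in LIP (SD, n = 3 libraries each). Counts of the inhibitors made up 0.174, 0.218 and 0.198% of all counts in the Ctrl libraries and 0.513, 0.543 and 0.507% in the LIP libraries, of which the WAP domain genes *Slpi*, *Wfdc17* and *Wfdc21* gave 0.122, 0.149 and 0.136% and 0.429, 0.455 and 0.423%. Summed deposited FPKM of the 10 was 1806, 2244 and 2038 in Ctrl and 6375, 6799.6 and 6075 in LIP, a mean log2 difference of 1.67. The sum is set by its most abundant genes, and haemoglobin genes took 14.8% ± 0.237 of all counts in Ctrl and 1.58% ± 0.0318 in LIP (SD, n = 3 libraries), which lowers every deposited FPKM in Ctrl. With FPKM rescaled to a fixed sum without the haemoglobin genes the difference was 1.46, with FPKM of all genes rescaled to a fixed sum it was 1.999, and with counts in place of FPKM 1.41.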

How the data were processed

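The libraries were 6 Smart-seq2 pools of sorted blood neutrophils, 3 Ctrl and 3 LIP, sequenced paired-end on an Illumina NovaSeq. Per the submitters' processing notes, reads were trimmed with cutadapt 1.9, checked with FastQC and mapped to GRCm38, and the aligner, the counting tool and the strand setting are not given in the sources used here. The authors deposited read counts per gene, which were used as they are for testing. The authors also deposited FPKM, which divides these counts by gene length and library total, and a check over 5901 genes with at least 500 counts found deviations of at most 2.49% between both. No value column was without a library.

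Counts were tested with edgeR 4.0.16 (R 4.3.3), with TMM factors, the quasi-likelihood F test, genes with a mean FPKM of 1 or more, Benjamini-Hochberg adjustment over all genes tested and a threshold of 0.05. The pipeline was tested on simulated data in which a small share of genes changed, as many up as down. The simulation held no shift in cell makeup, unlike these libraries, so it does not bear on the choice of scaling. SE is that of the log2 fold change, and it covers the spread between pools, PCR copies included. The common biological coefficient of variation between pools was 0.265. Alternatives used DESeq2 1.42.0, limma 3.58.1, other scalings and filters, a replicate block and fits leaving out each library. Ratios within libraries were compared by exact permutation (scipy 1.17.1). Tables, sequences and plots were handled with Python 3.11.15, pandas 2.3.3, Biopython 1.88 and matplotlib 3.10.9. Coding sequences came from GENCODE vM21 and promoters from RefSeq, GRCm38.p6.

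Genes named are the 10 inhibitors, every gene tested in a pathway list with up to 12 tested, the most abundant gene of each list and each marker list, and all genes with any count between the outermost stefin A-like genes. Also named are *Ctsg* and *Prss57*, neutrophil serine proteases under the filter, and *Ly6g* and *Itgam*, the alternative reference for ratios. *Mir7678* and the genes named for shared sequence were chosen after values were seen. The inhibitors and the lists were chosen with earlier results of these data known. A name on several rows was taken from the row with the highest mean FPKM, and 33 of 199 list names were not in the table.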

Additional observations from a re-analysis of the deposited data

How the results depend on the processing

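The largest dependence was on the scaling of libraries. The median log2 fold change over the genes tested shifted from -0.09 under TMM to -0.42 under library totals, -0.31 and -0.40 under limma on FPKM with pseudocounts of 1 and 0.1, and -1.88 with scaling on mature neutrophil genes, since those genes rose themselves. Under the last, 9252 genes were called, 68 higher and 9184 lower, and of the inhibitors 3 were higher and 3 lower, with directions turned for *Cstb* -0.94, *Cst3* -0.76 and *Slpi* -0.0898 and calls lost for *Stfa1* and *Stfa2*. The same scaling turned *Serpinb6a* -1.18, *Serpinb6b* -1.61, *Serpinb9* -1.5, *Serpinb9b* -1.65, *Serpinb10* -0.80, *Serpine2* -1.19, *Wfdc18* -0.12, *Cast* -1.21, *Reck* -1.60, *Bsg* -1.70, *Ctsb* -0.84, *Ctsc* -1.75, *Ctsl* -0.65, *Ctss* -1.63, *Ctsz* -1.71, *Ngp* -0.98, *Ly6c2* -0.998, *Cd209a* -0.30, *Gzma* -1.59, *Ppbp* -0.55 and *Siglecf* -0.35. Library totals turned *Serpinb6b* -0.14, *Serpinb9* -0.0356, *Serpinb9b* -0.20, *Reck* -0.14, *Bsg* -0.23, *Ctsc* -0.28, *Ctss* -0.16, *Ctsz* -0.24 and *Gzma* -0.12. Limma with a pseudocount of 1 gave *Serpinb6b* -0.0994, *Serpinb9* -0.0184, *Serpinb9b* -0.0444, *Reck* -0.068, *Bsg* -0.22, *Ctsc* -0.27, *Ctss* -0.14, *Ctsz* -0.22 and *Gzma* -0.0955, and with 0.1 *Serpinb6b* -0.12, *Serpinb9* -0.0204, *Serpinb9b* -0.0228, *Reck* -0.10, *Bsg* -0.22, *Ctsc* -0.28, *Ctss* -0.14, *Ctsz* -0.22 and *Gzma* -0.096. None of these was called under TMM. A filter at a mean FPKM of 5 tested fewer genes (5328) and called 3637, 1768 higher and 1869 lower, with *Bsg* -0.0774, *Ctsc* -0.13, *Ctss* -0.00124 and *Ctsz* -0.0884. *Prtn3* was at 0.0197 under median-of-ratios factors, 0.0199 under DESeq2, 0.0176 without a filter and 0.0231 under filterByExpr.

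Of the inhibitors, all 9 tested kept direction and call under library totals, median-of-ratios factors, exclusion of haemoglobin genes, DESeq2, limma with either pseudocount, filterByExpr and no filter, as did the 8 left at a mean FPKM of 5, where *Stfa2* was not tested. The log2 fold change of the summed stefin A-like genes ran from 0.64 with scaling on mature neutrophil genes to 2.46, and from 2.33 to 2.5 when a library was left out. Leaving out a library gave 9 called inhibitors each time, 8 higher and 1 lower, and 4679 to 5457 called genes. The log2 difference of the *Slpi* ratio to neutrophil genes ranged from -0.16 to 0.00125 and was 0.031 over *Ly6g* and *Itgam*. Ranges that crossed 0 for uncalled genes were *Serpinb9b* -0.21 to 0.88, *Itih5* -0.39 to 0.10, *Ctsc* -0.0567 to 0.17, *Ctsz* -0.00453 to 0.21, *Prtn3* -0.27 to 0.34.

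Replicate numbers do not pair libraries, with correlations of -0.0083, 0.0444 and 0.021 between same-numbered Ctrl and LIP deviations. With the number as a replicate block 5546 genes were called, 2724 higher and 2822 lower, and 9 inhibitors, 8 higher and 1 lower, and the stefin sum had a log2 fold change of 2.43.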
